A study of Mus musculus with 47 samples.

Results

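Described here are 9 mouse genes whose products write, maintain or erase DNA methylation: Dnmt1, Uhrf1, Dnmt3a, Dnmt3b, Dnmt3l, Tet1, Tet2, Tet3 and Tdg. They were chosen by name and found in the deposited table by gene symbol, 9 of 22632 genes, and all 9 were present. The table holds messenger RNA levels of 47 libraries from 12 groups. The cells were secondary mouse embryonic fibroblasts, which respond to doxycycline and were given it to induce reprogramming, the return of a differentiated cell to pluripotency. They were followed as 8 clones, 4 of a class titled SC (SC1 to SC4) and 4 of a class titled SI (SI1 to SI4). The labels do not spell the class names out. Both classes were sampled after 14 days with doxycycline (d14), after 21 days with it (d21), after 21 days with the drug followed by 1 day (d22) or 2 days (d23) off it, and after 27 days with it (d27). Secondary iPS (induced pluripotent stem) cells of the 4 SC clones had 21 days with the drug and 6 without. Feeder mouse embryonic fibroblasts had no doxycycline, gave 3 libraries and were the only group without reprogramming. Each group of clones held 4 libraries. A clone may be unlike others of its class, and the labels give no strain, sex or reprogramming vector.

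DNA methylation in mammals sits mostly on cytosine in CpG, a cytosine followed by a guanine. Dnmt3a and Dnmt3b set new methyl groups, with Dnmt3l as a catalytically inactive partner, and Dnmt1 copies the pattern after replication, brought to hemimethylated DNA by Uhrf1. Tet1, Tet2 and Tet3 oxidise 5-methylcytosine, and Tdg cuts out the more oxidised forms for base excision repair. In mouse pluripotent cells Dnmt3b, Dnmt3l and Tet1 are known to be highly expressed, and fibroblasts carry a different methylation pattern that reprogramming has to reset.

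The DNA just before the start of the members shows how much of the substrate of these enzymes each gene carries itself. All 9 members had promoter entries in RefSeq (build GRCm38.p6), with 16 start sites in all, and the 250 bases before each start were read. The 4 windows below belong to the 3 members that moved most alike over the libraries, Dnmt3b, Dnmt3l and Tet1, and to Tet2, which did not move with them. Where a gene had several start sites, the window with the most CpG is shown. Each is printed 5′ to 3′ on the gene's own strand, with every CpG in capitals. They lie at chr2:153649199-153649448 (plus strand, Dnmt3b), chr10:78042037-78042286 (plus strand, Dnmt3l), chr10:62887325-62887574 (minus strand, Tet1) and chr3:133544391-133544640 (minus strand, Tet2).
Dnmt3b: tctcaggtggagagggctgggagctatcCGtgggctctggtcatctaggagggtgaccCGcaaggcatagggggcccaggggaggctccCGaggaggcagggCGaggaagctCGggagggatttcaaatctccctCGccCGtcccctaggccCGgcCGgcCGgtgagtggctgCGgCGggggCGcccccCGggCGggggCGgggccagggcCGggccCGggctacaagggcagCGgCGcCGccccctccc
Dnmt3l: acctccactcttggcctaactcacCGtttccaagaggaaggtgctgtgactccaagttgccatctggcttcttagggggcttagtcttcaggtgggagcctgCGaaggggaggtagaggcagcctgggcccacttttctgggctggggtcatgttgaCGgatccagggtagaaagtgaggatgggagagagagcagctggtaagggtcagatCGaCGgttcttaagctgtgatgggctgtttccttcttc
Tet1: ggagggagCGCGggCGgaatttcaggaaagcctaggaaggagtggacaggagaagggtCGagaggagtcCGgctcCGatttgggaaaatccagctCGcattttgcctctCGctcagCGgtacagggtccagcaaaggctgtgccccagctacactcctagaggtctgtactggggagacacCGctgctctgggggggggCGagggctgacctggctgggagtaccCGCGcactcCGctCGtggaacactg
Tet2: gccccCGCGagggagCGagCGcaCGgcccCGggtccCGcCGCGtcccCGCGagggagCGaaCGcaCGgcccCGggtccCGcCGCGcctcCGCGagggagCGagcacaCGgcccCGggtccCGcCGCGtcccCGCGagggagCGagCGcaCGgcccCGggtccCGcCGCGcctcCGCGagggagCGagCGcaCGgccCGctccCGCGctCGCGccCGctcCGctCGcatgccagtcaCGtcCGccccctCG
The Dnmt3b window held 21 CpG and the Tet1 window 15, while the 3 Dnmt3l windows held 5, 4 and 3. The median over all 32851 promoter windows of this length was 6, and 7.87% had none. Dnmt3l is thus the CpG-poor member: 44.4% of all windows had fewer CpG than its richest. The Tet2 window held 51, more than 99.9% of all windows. The remaining members had between 2 and 40 CpG per window, and the window with 2 was one of the 3 before Dnmt1, whose richest held 26. These are counts of letters and say nothing of the methylation of these sites, which was not measured.

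The classes differed most in Dnmt3l, Dnmt3b and Tet1, which exceeded 10 RPKM in every iPS and most SC libraries from d21 on, with at most 7.95 RPKM in any SI or feeder library. RPKM counts reads per kilobase of gene, scaled to the reads of the library. The gene lengths used are not given, so levels compared between genes, and shares built on them, are approximate. Tet2 behaved differently: it was high in both classes while doxycycline was present and low within 1 day of its removal. Uhrf1 and Dnmt1 were low in SI clones after 2 days without the drug. In both genes SI3 then lay below all feeders, and the other SI clones lay above them. Dnmt3a peaked at d22 in SC clones. Tdg did not reach 1 RPKM in any library.

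**Figure D1:**
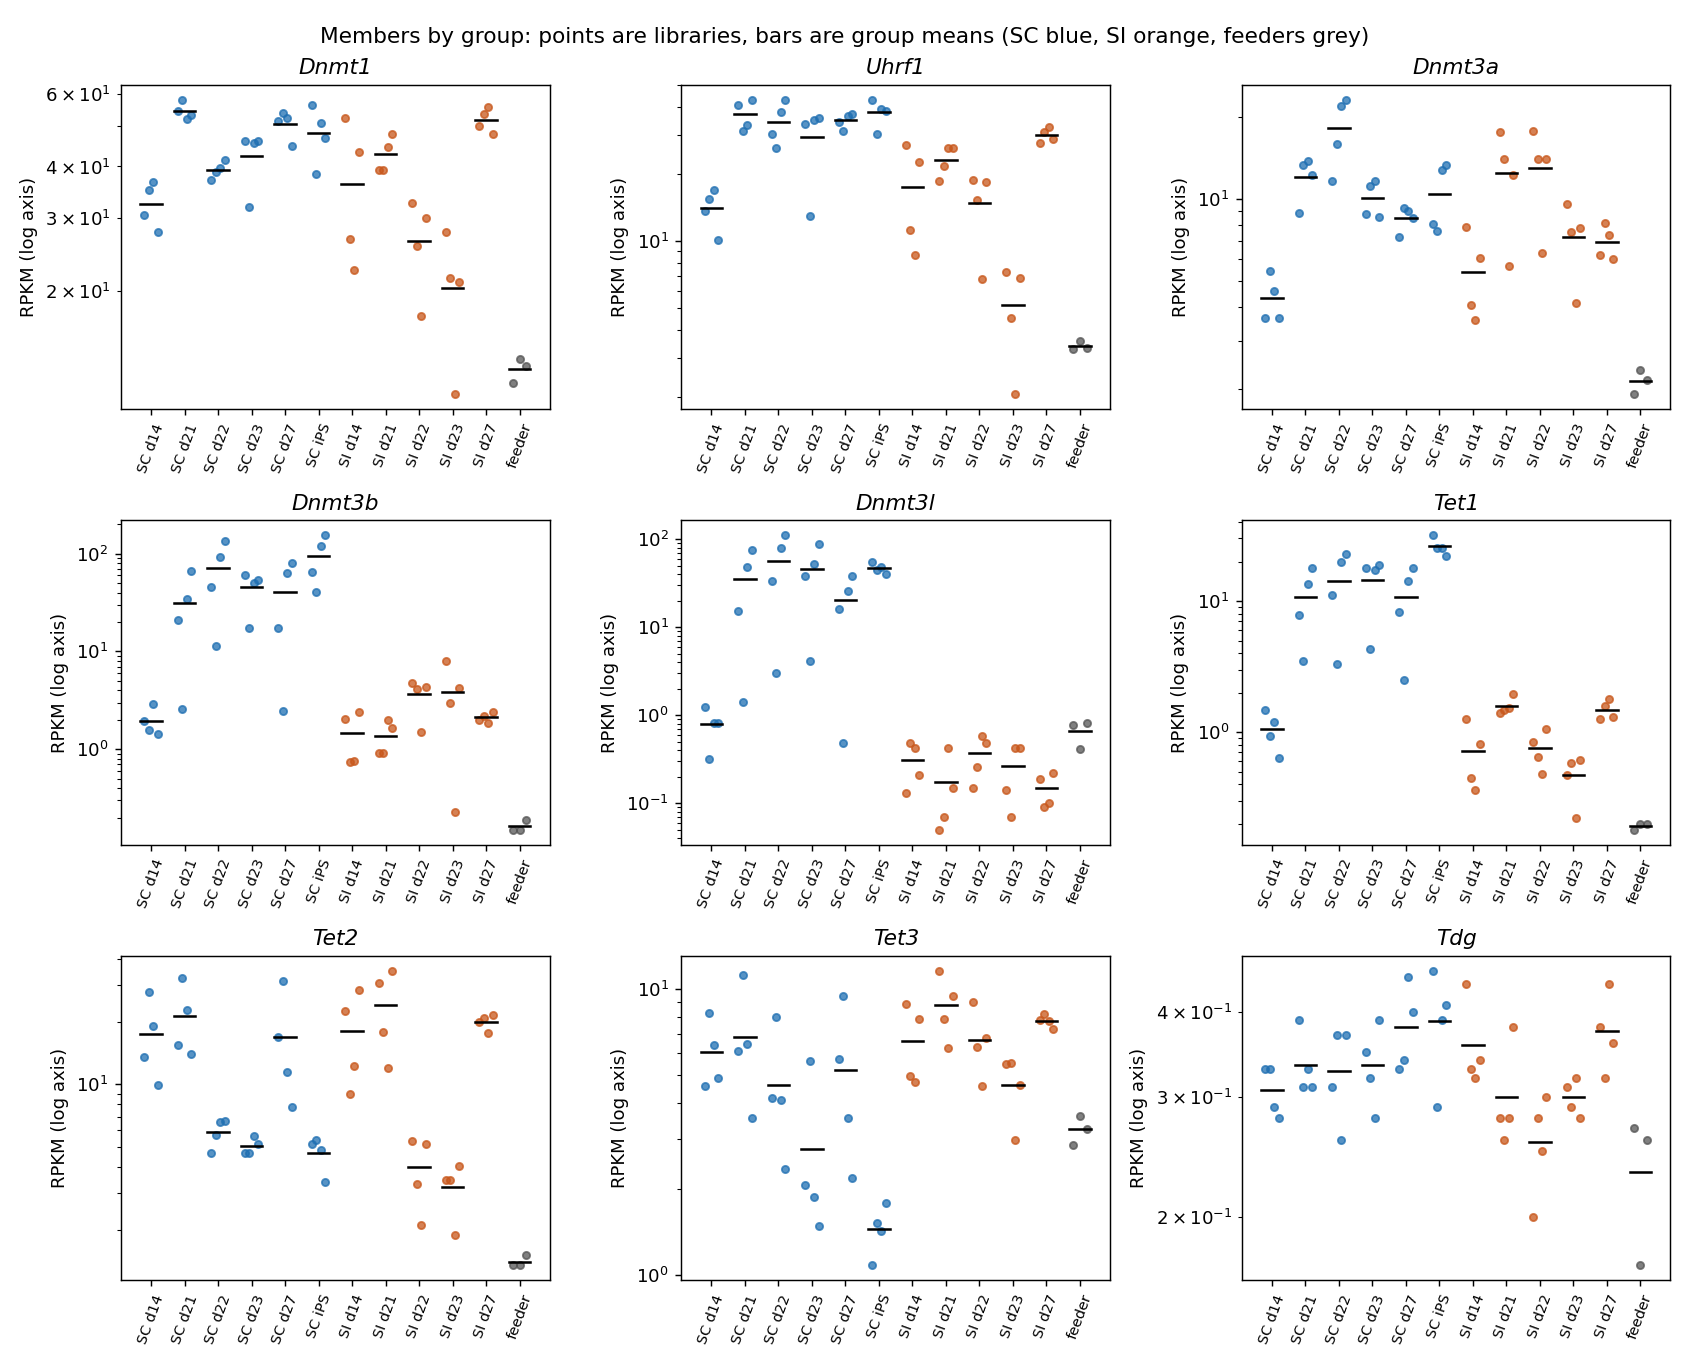
RPKM on a log axis for each of the 9 members in 12 groups; points are libraries, bars are group means, with 4 clones per group and 3 feeder libraries. Dnmt3b, Dnmt3l and Tet1 are high in SC clones from d21 and in iPS cells, Tet2 drops at d22 and d23 in both classes, and Tdg lies between 0.17 and 0.46 throughout.

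The labelled cell types were checked on their defining genes, and the libraries on their totals. Pluripotency markers (11 of 12 found, such as Nanog and Dppa4) had a mean log2(RPKM + 1) of 5.68 to 6.4 in iPS cells and 0.021 to 0.050 in feeders, where Dppa4 was listed at 0 in all 3. Fibroblast markers (14 of 14 found) stood at 8.39 to 8.43 in feeders and still at 5.28 to 6.72 in iPS cells. Macrophage markers (7 of 8 found) were present in feeders too, with Csf1r, the receptor of a macrophage growth factor, at 4.63 to 4.82 RPKM. In bulk RNA, fewer cells expressing a gene and less RNA per cell cannot be told apart. The RPKM summed to 189172.4 to 245694.8 per library, and 10909 to 11931 genes reached 1 RPKM. Read totals were not used here. From the steps between values of short genes, depth was put at 31.4 to 77.5 megareads in the 33 libraries where it was clear, up to a whole multiple.

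Differences were tested with limma on log2(RPKM + 1), each comparison on its own libraries, with Benjamini-Hochberg adjustment over all genes tested and a threshold of 0.05. Folds on this scale understate changes of weakly expressed genes. Nothing in the labels says that clones came from separate animals, so the p-values reflect the spread among these libraries alone, which may be technical in part. A gene entered a comparison when it had at least 1 RPKM in as many libraries as the smaller group holds. Tdg never entered, and 8 members or fewer were tested. Dnmt3l entered the class comparisons at d21, d22 and d23 only through its SC libraries, as did Tet1 at d23. Dnmt3b at d14, d21 and d23 and Tet1 at d22 reached 1 RPKM in only some SI libraries and needed SC libraries to enter. Dnmt3b, Dnmt3l and Tet1 entered the comparison of iPS cells with feeders only through iPS cells. A count over the members tested is thus no count over the 9.

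At d14 the classes were not told apart on any member. Of 6 members tested 0 differed, as did 0% of 11714 genes (169 at an unadjusted p under 0.05). By d21 the libraries of Dnmt1, Uhrf1, Dnmt3b, Dnmt3l and Tet1 no longer overlapped between classes, and in all 5 SC was higher. Among all genes tested at d21, 4.8% were apart with SC higher. The same 5 members were apart at d22 (background 11.4%), those and Tet2 at d23 (21.2%), and Dnmt3b, Dnmt3l and Tet1 at d27 (5.62%). Dnmt3l was not among the genes tested at d27, over which that share was taken. Its lowest SC library then, SC2, had 0.48 RPKM against at most 0.22 in SI, both low values. No member was past the threshold at d21 or d22, nor was any of all genes (0%), with 1572 and 4140 genes at an unadjusted p under 0.05. At d23, 6 of 8 members tested were higher in SC and 0 were lower. Among them, Dnmt3l, Tet1 and Dnmt3b needed SC libraries, where they were high, to enter. Among all genes tested then, 42.5% were called, 23% higher and 19.5% lower. At d27 none of 7 was called, beside 0.634% of all genes.

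SC2 stood apart from the other SC clones, with the lowest Dnmt3b, Dnmt3l and Tet1 of its class at d21, d22, d23 and d27. Leaving it out was chosen after its values were seen. Without it, 3 members were called at d21 (Tet1, Dnmt3l, Dnmt3b), beside 1.85% of all genes, and 5 at d22 (those, Uhrf1 and, lower in SC, Tet3), beside 34.1%. At d23 7 were called, beside 65.3% of all genes, with Tet3 lower in SC. At d27 6 were, beside 23.9%, with Tet2 (-0.75) and Tet3 (-0.93) lower in SC. Dnmt3l, among those called at each time, entered these fits only through SC, where it was high, and is no support in the counts. Dnmt3b at d21 and Tet1 at d22 and d23 also needed SC libraries to enter. The d23 calls also rested on single libraries. Without any 1 of SC1, SC3, SC4, SI2, SI3 or SI4 no member passed, as the adjusted p of Tet1 rose to at most 0.0800, and without SI1 5 passed. Those fits called at most 0.0755% of all genes, and 15% without SI1. The direction of all 6 and an unadjusted p of at most 0.0444 held in each of these fits.

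The maintenance pair comes first. Dnmt1, the methyltransferase that follows the replication fork, ranged from 11.21 to 58.08 RPKM (median 39.72). In SC clones 1 to 4 it stood at 30.51, 35.05, 36.64 and 27.69 RPKM at d14 and at 54.65, 58.08, 52.19 and 53.4 at d21. Each clone was higher at d21, and Dnmt1 rose by a log2 of 0.74 ± 0.11 (SE, limma adjusted p = 0.000998). In SI clones it stood at 52.35, 26.75, 22.38 and 43.44 RPKM at d14, a wide spread that overlapped both SC groups' ranges. After 1 day without doxycycline SC clones had 37.06, 38.84, 39.72 and 41.43 RPKM and SI clones 32.54, 25.64, 17.4 and 30.04. Dnmt1 thus fell in both classes, by 0.47 ± 0.09 in SC (limma adjusted p = 0.0277) and by 0.71 ± 0.19 in SI (limma adjusted p = 0.0194).

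On the second day the classes parted further in Dnmt1. SC clones had 46.14, 31.85, 45.52 and 45.99 RPKM, and SI clones 27.71, 21.47, 11.21 and 20.98. All 4 SC libraries lay above all 4 SI libraries, with a ratio of means of 2.08 and a log2 difference of 1.07 ± 0.26 (limma adjusted p = 0.0249). Against d21, the SI fall was 1.10 ± 0.24 (limma adjusted p = 0.00464), while the SC difference of -0.37 ± 0.15 did not pass (limma adjusted p = 0.211). The changes of the classes differed by 0.72 ± 0.29, which did not pass either (limma adjusted p = 0.153; 0.88 and 0.0435 without SC2). With doxycycline kept on to d27, SC clones had 51.58, 53.88, 52.29 and 44.85 RPKM and SI clones 50.15, 53.74, 55.82 and 47.87, which overlap.

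Uhrf1, which binds hemimethylated CpG and recruits Dnmt1, had the wider range of the pair, 2.06 to 42.99 RPKM (median 26.05). SC clones had 13.7, 15.39, 16.95 and 10.12 RPKM at d14 and 40.69, 31.2, 33.06 and 42.68 at d21, a rise of 1.34 ± 0.17 on the log2 scale (limma adjusted p = 0.000515). SI clones had 18.54, 21.6, 26.02 and 26.05 RPKM at d21, all below the SC clones, with 0.66 ± 0.15 between the classes (limma adjusted p = 0.296). On d22 the SC libraries stood at 30.26, 26.05, 37.91 and 42.96 RPKM and the SI libraries at 18.74, 15.34, 6.79 and 18.42. The classes did not overlap, and the difference was 1.22 ± 0.30 (limma adjusted p = 0.1; 1.34 and 0.0218 without SC2).

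At d23 Uhrf1 was low in SI clones, and SI3 was below all feeders. They had 7.25, 4.51, 2.06 and 6.83 RPKM, each between 2.56 and 12.6 times lower than in the same clone at d21, and Uhrf1 fell by 2.05 ± 0.30 (limma adjusted p = 0.000729). SC clones had 33.62, 12.94, 34.96 and 35.61 RPKM, so that 3 stood close together and SC2 was low. The class difference was 2.30 ± 0.40 (limma adjusted p = 0.0221). Set against d21, the SC change exceeded the SI change by 1.64 ± 0.46, which did not pass (limma adjusted p = 0.127). It passed with each clone as a block (limma adjusted p = 0.0331) and without SC2 (1.90, 0.0057). At d27 the classes overlapped again, at 34.12, 31.27, 36.25 and 37.11 RPKM in SC and 27.37, 30.72, 32.29 and 28.66 in SI.

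Genes of the cell cycle moved with the maintenance pair. The 16 proliferation genes examined, among them Mki67 and the Mcm helicase subunits, had a mean log2(RPKM + 1) of 4.55 to 4.95 in SI clones at d21 and 2.16 to 3.28 at d23. In SC clones they had 5.09 to 5.43 at d21 and 3.90 to 5.56 at d23, the 3.90 being SC2. All 16 were called lower in SI clones at d23 than at d21, beside 32% of all genes (54.6% in either direction). Of these, 1 did not reach 1 RPKM in all SI libraries at d23 and needed d21 libraries, where it was higher, to enter. All 16 were called higher in SC than in SI at d23, beside 23% (42.5% in either direction), and 1 of them needed SC libraries to enter. Their part in the Dnmt1 and Uhrf1 differences was not tested. Over the 47 libraries the genes most like Uhrf1 were Lig1, the ligase that joins Okazaki fragments (Pearson r = 0.989), Chtf18 (0.988) and Sgo1 (0.986). Those most like Dnmt1 were Ezh2, the Polycomb methyltransferase (0.978), and the mitotic motors Kif11 (0.977) and Kif15 (0.976). The pair itself had r = 0.950. These values describe libraries that share clones and groups, among 8983 genes with a group mean of at least 5 RPKM.

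Feeders had the lowest mean of Dnmt1 and of Uhrf1 of the 12 groups, with 11.96, 13.68 and 13.15 RPKM of Dnmt1 and 3.27, 3.56 and 3.31 RPKM of Uhrf1. SI clones at d23 were next. Their range took in the feeders for both genes only through SI3, which was below all feeders, while the other SI clones were above. The ratio of Uhrf1 to Dnmt1 in RPKM was 0.245 on average in SI clones at d23 and 0.262 in feeders, against 0.784 in iPS cells. iPS cells had 56.25, 38.42, 50.91 and 46.93 RPKM of Dnmt1 and 42.99, 30.04, 39.24 and 38.41 of Uhrf1. Both genes were higher in iPS cells than in feeders, by 1.81 ± 0.13 for Dnmt1 (limma adjusted p = 8.01e-06) and by 3.13 ± 0.13 for Uhrf1 (limma adjusted p = 5.50e-07). That comparison called 7 of 8 members higher and 1 lower, beside 41.2% and 38.8% of all genes (79.9% in either direction). Among the 7, Dnmt3b, Dnmt3l and Tet1 entered only through iPS cells, where they were high, and are no support in that count.

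Of the de novo enzymes, Dnmt3a was present in every library, between 1.91 and 23.12 RPKM (median 8.48). SC clones had 3.65, 5.42, 4.59 and 3.64 RPKM at d14 and 8.84, 13.35, 13.75 and 12.27 at d21. Every clone was higher at d21, and Dnmt3a rose by 1.29 ± 0.16 (limma adjusted p = 0.000535). In that comparison 6 of 8 members rose and 0 fell, beside 22% and 20.6% of all genes (42.5% in either direction). Dnmt3l and Tet1 needed their d21 libraries, where they were higher, to enter it. SI clones had 7.87, 4.06, 3.58 and 6.04 RPKM of Dnmt3a at d14 and 17.6, 14.04, 5.64 and 12.26 at d21. All 4 were higher at d21, yet the difference of 1.02 ± 0.34 did not pass (limma adjusted p = 0.246), like all 7 members and all genes (0%, 2313 at an unadjusted p under 0.05). It was called without the d21 library of SI3, the lowest of its group (1.33, 0.0233), beside 13.9% of all genes, and in 1 fit over all 12 groups (limma adjusted p = 0.00953), beside 17.3%.

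Dnmt3a differed from its relatives in that the classes overlapped at all 5 times. One day after removal of the drug SC clones had 11.66, 15.88, 21.88 and 23.12 RPKM, each 1.19 to 1.88 times its d21 level. SI clones had 17.66, 13.97, 6.31 and 13.99 RPKM, close to their d21 levels. The SC difference of 0.52 ± 0.23 was past the threshold only with the clone as a block (limma adjusted p = 0.188 without and 0.0161 with it). On d23 it was lower than on d22 in all 8 clones, at 8.77, 11.11, 11.63 and 8.59 RPKM in SC and 9.55, 7.52, 4.12 and 7.81 in SI. The d22 level was thus not held in either class.

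With the drug continued, Dnmt3a stood at 7.22, 9.22, 9.02 and 8.48 RPKM in SC clones at d27, lower than at d21 in all 4. The difference of -0.45 ± 0.14 passed only with the clone block (limma adjusted p = 0.332 without and 0.0335 with it). It was then the only member called, of 8, beside 11.3% of all genes. Without the block none was, beside 0.00847% of all genes. In SI clones it had 6.21, 8.12, 7.38 and 6.01 RPKM at d27, and none of 7 members was called there (0% of all genes, 3566 at an unadjusted p under 0.05). Without the d21 library of SI3, 4 of 7 members were called between those times, Dnmt3a among them (-0.97, limma adjusted p = 0.000901), beside 48.6% of all genes.

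Dnmt3b had the widest range of the catalytic members, 0.15 to 154.29 RPKM (median 2.98). At d14 SC clones had 1.94, 1.57, 2.9 and 1.44 RPKM and SI clones 2.03, 0.74, 0.75 and 2.38, which overlap. At d21 SC clones had 21.01, 2.56, 33.99 and 66.93 RPKM, so that SC2 stood far below the others, and SI clones had 0.92, 0.91, 1.97 and 1.66. In SC Dnmt3b rose by 2.83 ± 0.75 over this week (limma adjusted p = 0.0139), by 1.63 to 46.5 times in single clones. The class difference at d21 was 3.16 ± 0.76 (limma adjusted p = 0.296; 4.01 and 0.00483 without SC2).

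After removal of doxycycline, Dnmt3b stood at 45.34, 11.35, 92.16 and 133.36 RPKM on d22 in SC clones, at least 1.99 times the d21 level in each. Tested with the clone as a block, it rose by 1.32 (limma adjusted p = 0.00241; 0.453 without the block). It rose in SI clones too, to 4.72, 4.13, 1.51 and 4.37 RPKM, by 0.94 ± 0.28 (limma adjusted p = 0.0285), with SI3 as the exception. This SI call was lost without any 1 of 6 of its 8 libraries, the others being SI3 at either time, with a highest adjusted p of 0.0818. On d23 SC clones had 60.44, 17.37, 50.35 and 53.25 RPKM and SI clones 7.95, 2.98, 0.23 and 4.26. All SC libraries lay above all SI libraries, and the difference was 3.43 ± 0.61 (limma adjusted p = 0.0221), a ratio of means of 11.8.

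Dnmt3b was the member highest in iPS cells, at 64.88, 40.84, 119.56 and 154.29 RPKM. SC clones kept on the drug had 17.21, 2.47, 63.12 and 81.01 RPKM at d27. Each clone was higher as iPS cells, by 1.89 to 16.5 times, and the difference of 1.82 ± 0.93 did not pass (limma adjusted p = 0.22). Feeders had 0.15, 0.15 and 0.19 RPKM, 6.19 ± 0.40 lower on the log2 scale than iPS cells (limma adjusted p = 4.42e-06). SI clones at d23 were at 1.74 ± 0.59 above feeders (limma adjusted p = 0.0527), and this passed without SI3 (2.30) or with a pseudocount of 0.1 (3.22).

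The balance between the de novo enzymes differed between the groups. The Dnmt3b share of the summed Dnmt3a and Dnmt3b RPKM was 31.1% ± 7.15 (SD, n = 4) in SC clones at d14 and 60.5% ± 30.3 at d21, where SC2 was at 16.1%. The share was 78.9% ± 12.2 at d23 and 88.9% ± 3.34 in iPS cells, the narrowest spread among the SC groups. In SI clones its mean lay between 12.2% (d21) and 28.6% (d23), and in feeders it was 7.13%. Dnmt3a thus made most of the sum in SI clones and feeders, and Dnmt3b in iPS cells.

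Dnmt3l, the partner without catalytic activity, separated the classes by the largest ratio. Levels in SC clones were 1.25, 0.32, 0.81 and 0.82 RPKM at d14 and 15.26, 1.41, 48.81 and 75.17 at d21. Every clone was higher, by 4.41 to 91.7 times, and Dnmt3l rose by 3.47 ± 0.91 (limma adjusted p = 0.0134). SI clones had 0.05, 0.07, 0.42 and 0.15 RPKM at d21 and did not exceed 0.58 RPKM at any time. At d21 the SC mean was 204 times the SI mean, with 4.08 ± 0.92 on the log2 scale (limma adjusted p = 0.296; 5.09 and 0.00483 without SC2).

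On d22 Dnmt3l stood at 33.47, 3.0, 79.99 and 111.13 RPKM in SC clones, each 1.48 to 2.19 times its d21 level. With the clone as a block it rose by 0.77 (limma adjusted p = 0.00379; 0.765 without the block). Without the block, leaving out the d21 library of SC2 turned this difference to -0.24. On d23 SC clones had 38.35, 4.13, 52.54 and 88.97 RPKM and SI clones 0.14, 0.07, 0.43 and 0.43. The difference was 4.64 ± 0.76 (limma adjusted p = 0.0221). SC2 was far below the other SC clones and still above every SI clone.

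SC clones on continued doxycycline had 16.06, 0.48, 25.86 and 38.37 RPKM of Dnmt3l at d27, while their iPS cells had 54.5, 44.3, 47.82 and 40.48. SC2 was the clone with the widest gap, 92.3 times, and as iPS cells the 4 clones were alike. The difference between iPS cells and d27 was 1.89 ± 0.88 and did not pass (limma adjusted p = 0.186). Feeders had 0.78, 0.41 and 0.82 RPKM, with a mean above that of SI clones at every time. Dnmt3l shares 67 of 2988 exon bases with Aire on the opposite strand, a gene at 0.0 to 7.62 RPKM. Whether counting used the strand is not given, so reads in that stretch are uncertain.

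**Figure D2:**
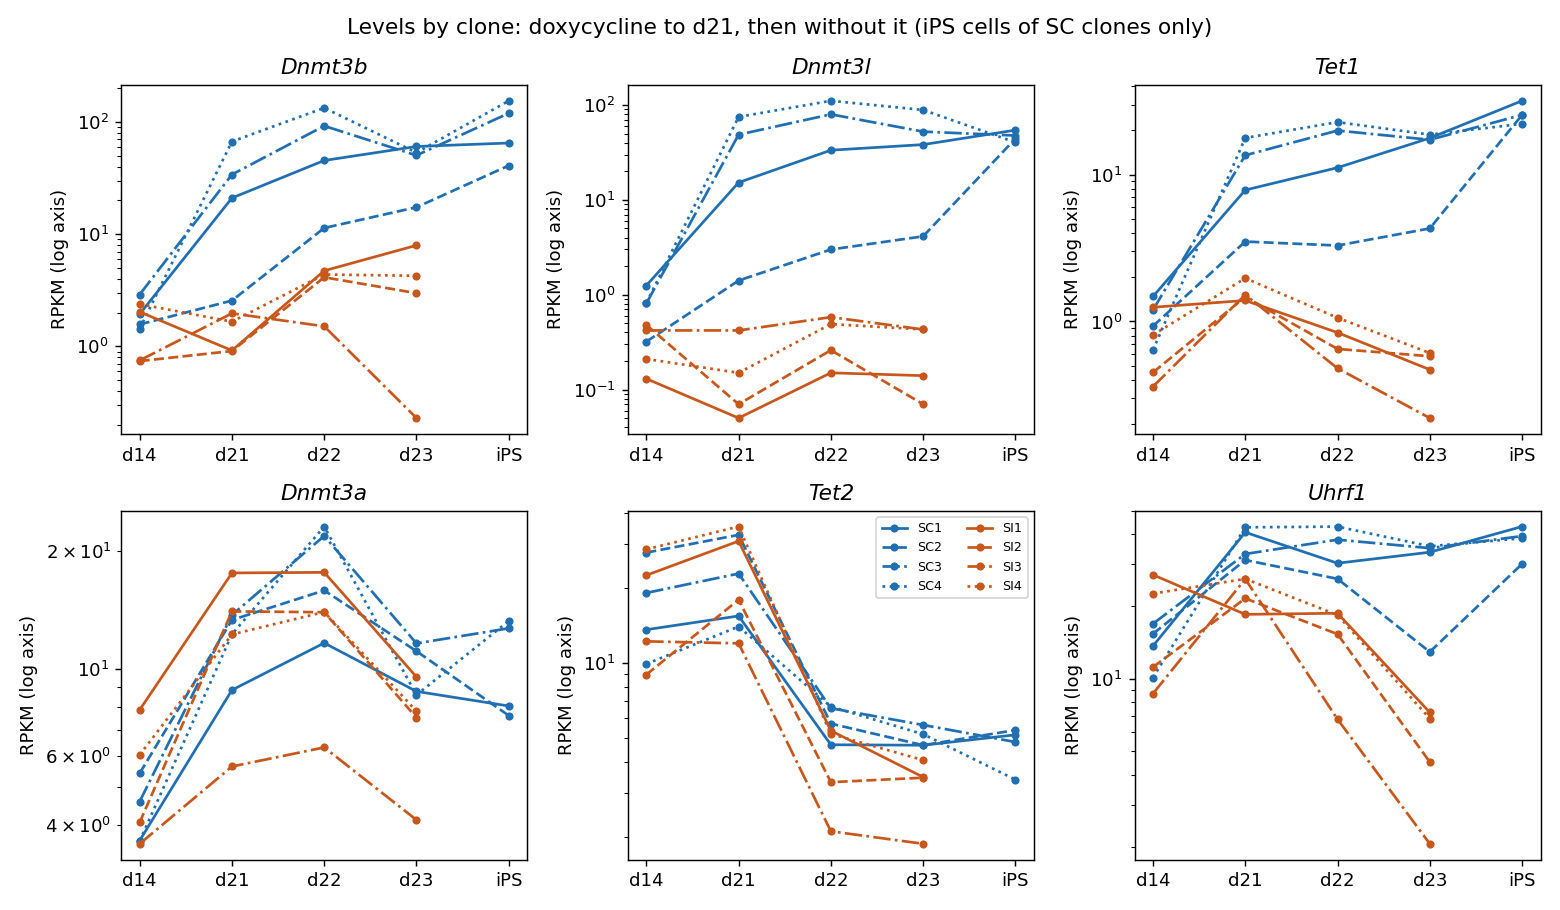
RPKM on a log axis of 6 members along the course of each clone, with doxycycline to d21 and without it from d22; line styles mark the clones, and iPS cells exist for SC clones only. SC2 (dashed blue) lies below the other SC clones in Dnmt3b, Dnmt3l and Tet1 from d21 to d23 and reaches them in Dnmt3l and Tet1 as iPS cells, while Tet2 drops in all 8 clones at d22.

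Among the erasers, Tet1 ranged from 0.18 to 31.81 RPKM (median 1.52). SC clones had 1.48, 0.93, 1.2 and 0.64 RPKM at d14 and 7.85, 3.5, 13.54 and 17.77 at d21, and Tet1 rose by 2.32 ± 0.39 (limma adjusted p = 0.00169). SI clones had 1.25, 0.45, 0.36 and 0.81 RPKM at d14 and 1.39, 1.47, 1.52 and 1.97 at d21. All 4 were higher at d21, with a difference of 0.61 ± 0.18 that did not pass (limma adjusted p = 0.246). The classes did not overlap at d21, where they differed by 1.99 ± 0.39 (limma adjusted p = 0.296; 2.38 and 0.00833 without SC2).

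After removal of doxycycline, Tet1 levels moved apart in the 2 classes. On d22 SC clones had 11.15, 3.29, 19.95 and 22.77 RPKM and SI clones 0.84, 0.65, 0.48 and 1.06. On d23 they had 17.73, 4.3, 17.27 and 18.71 against 0.47, 0.58, 0.22 and 0.61, with all 4 SC clones above and all 4 SI clones below their d21 levels. Tet1 fell in SI, by 0.56 ± 0.13 at d22 (limma adjusted p = 0.0124) and 0.82 ± 0.13 at d23 (limma adjusted p = 0.000913). The SC differences did not pass. Between the classes at d23 the difference was 3.23 ± 0.40 (limma adjusted p = 0.019), a ratio of means of 30.9. From d21 to d23, the SC change stood 1.25 ± 0.60 above the SI change (limma adjusted p = 0.2; 0.0327 with the clone block; 1.31 and 0.00794 without SC2).

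iPS cells had the highest mean Tet1 of all groups, at 31.81, 25.46, 25.49 and 22.16 RPKM, and only SC4 at d22 reached into their range. At d27 SC clones had 8.27, 2.51, 14.34 and 17.94 RPKM and SI clones 1.26, 1.57, 1.79 and 1.31. Each SC clone was higher as iPS cells, by 1.24 to 10.1 times, and the difference of 1.45 ± 0.46 did not pass (limma adjusted p = 0.0901; 0.0224 without the d27 library of SC4). Feeders had 0.18, 0.2 and 0.2 RPKM, lower than iPS cells by 4.50 ± 0.12 (limma adjusted p = 1.03e-07).

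Tet2 was on average the most abundant of its family while the drug was present. SC clones had 13.57, 27.64, 19.05 and 9.89 RPKM at d14, 15.4, 32.55, 22.77 and 13.96 at d21, and 16.83, 31.26, 11.42 and 7.78 at d27. SI clones had 22.42, 8.96, 12.18 and 28.49 RPKM at d14, 30.73, 17.89, 11.96 and 35.15 at d21, and 19.99, 20.9, 17.54 and 21.59 at d27. The classes overlapped at each of these 3 times, and SC2 was the highest SC clone at all of them. Feeders had 1.36, 1.35 and 1.51 RPKM, below every other library. At d14 Tet2 was above feeders by 2.85 ± 0.28 in SC (limma adjusted p = 0.000139) and by 2.85 ± 0.37 in SI (limma adjusted p = 0.00738).

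Within 1 day without doxycycline Tet2 was at 4.69, 5.7, 6.57 and 6.67 RPKM in SC clones and at 5.34, 3.32, 2.11 and 5.18 in SI clones. All 8 clones were lower than at d21, by 2.09 to 5.71 times in SC and 5.39 to 6.79 times in SI. Tet2 fell by 1.62 ± 0.25 in SC (limma adjusted p = 0.0157) and by 2.26 ± 0.36 in SI (limma adjusted p = 0.00239). The changes of the classes differed by 0.65 ± 0.46, which did not pass (limma adjusted p = 0.779). No member passed in this test of differing d22 changes, nor did any of all genes (0%, 702 at an unadjusted p under 0.05). In the SC comparison 0 of 8 members rose and 2 fell, Tet2 and Dnmt1, beside 3.42% and 4.75% of all genes (8.17% in either direction).

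Those SC calls at d22 rested on single libraries, and the fits named next called 0.247% to 1.7% of all genes. None remained without SC1 at d22, without SC3 at d21 or without the clone SC2, when Tet2 was at -1.38 (limma adjusted p = 0.0502). One remained without SC3 at d22 or without SC1 or SC2 at d21. With the clone as a block 6 members were called in SC, beside 37.3% of all genes: Dnmt3a, Dnmt3b and Dnmt3l rose, and Tet2, Dnmt1 and Tet3 (-0.47, limma adjusted p = 0.00554) fell. In SI clones 4 of 7 members were called, beside 37.9% of all genes in either direction: Dnmt3b rose, and Tet2, Dnmt1 and Tet1 fell. Without SI4 at d21, 2 members were called there, beside 24.1%. In SI clones Dnmt3b needed its d22 libraries and Tet1 its d21 libraries to enter, the times at which each was higher.

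On d23 Tet2 was at 4.67, 4.67, 5.63 and 5.17 RPKM in SC clones and 3.48, 3.46, 1.88 and 4.07 in SI clones. Against d21 it fell by 1.8 ± 0.25 in SC (limma adjusted p = 0.00813), the only member of 8 called there, beside 2.81% of all genes lower and 3.79% in either direction. In SI it fell by 2.48 ± 0.33 (limma adjusted p = 0.000482). In that SI comparison 5 of 7 members fell and 0 rose, beside 32% and 22.7% of all genes (54.6% in either direction). Tet1, among the 5, entered only through d21, where it was higher, and is no support in that count. By d23 the classes no longer overlapped in Tet2, with SC above SI by 0.54 ± 0.18 (limma adjusted p = 0.043), the smallest of the 6 differences called. The interaction for d23 called 0 of 8 members and 0% of all genes (3237 at an unadjusted p under 0.05). It called 2 with the clone block, Tet1 and Uhrf1, beside 23.2% of all genes, and 3 without SC2, those and Dnmt1, beside 27.9%.

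In iPS cells Tet2 stood at 5.14, 5.37, 4.81 and 3.4 RPKM, near SC clones at d22 and d23 and below all 4 SC libraries at d27. The difference to d27 was -1.49 ± 0.35 (limma adjusted p = 0.0606; 0.0308 with the clone block, when it was the only member called; 0.0451 at -1.21 without SC2). The block called 12% of all genes and the fit without SC2 9.37%. With all libraries and no block no member passed in that comparison, beside 1.62% of all genes. Tet1, Tet2 and Tet3 did without SC4 at d27, beside 23%, and in 1 fit over all 12 groups, beside 18.1%. Leaving out SC2 among the iPS libraries gave 1, beside 15%. Tet2 was still higher in iPS cells than in feeders, by 1.23 ± 0.14 (limma adjusted p = 5.02e-05).

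Tet3, the member of the family known from the egg and from neurons, ranged from 1.08 to 11.62 RPKM (median 5.47). SC clones had 6.08, 11.24, 6.43 and 3.55 RPKM at d21 and 2.06, 5.6, 1.88 and 1.48 at d23. SI clones had 11.62, 7.84, 6.24 and 9.51 RPKM at d21 and 5.47, 5.52, 2.96 and 4.61 at d23. All 8 clones were lower on d22 than on d21 and lower again on d23. Tet3 fell in SI at d23, by 0.79 ± 0.22 (limma adjusted p = 0.0132). In SC the difference of -1.09 ± 0.37 passed with the clone block (limma adjusted p = 0.151 without and 0.00824 with it) and without SC2 (0.0425).

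Tet3 was the member with SI above SC on average at all 5 times, with ratios of means of 1.09 to 1.68. The classes overlapped at each time, and SC2 was the highest SC clone in Tet3 at all of them. At d23 the difference was -0.67 ± 0.31 (limma adjusted p = 0.104), and -0.98 without SC2 (limma adjusted p = 0.00297). iPS cells had 1.08, 1.52, 1.42 and 1.79 RPKM, less than the 2.86, 3.61 and 3.23 of feeders. Tet3 was the only member lower in iPS cells than in feeders, by 0.79 ± 0.12 (limma adjusted p = 0.000301).

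The makeup of the TET family changed with these levels. Tet1 made up 4.68% ± 2.09 (SD, n = 4) of the summed TET RPKM in SC clones at d14, 29.1% ± 17.7 at d21, 61.4% ± 21.3 at d23 and 80.9% ± 2.05 in iPS cells. In SI clones its group mean stayed between 2.81% and 6.68%, and in feeders it was 4.01%. The sum itself was 38.7 ± 7.95 RPKM in SC and 34.3 ± 13 in SI after 21 days on the drug. At d23 it was 22.3 ± 5.16 in SC and 8.33 ± 2.18 in SI, and in iPS cells 32.4 ± 4.38. At d27 it was 32.8 ± 7.08 in SC and 29.2 ± 1.59 in SI, close to iPS cells but of another makeup, with Tet2 at 48.4% ± 19.3 and 68.3% ± 2.77 against 14.4% ± 1.83.

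**Figure D3:**
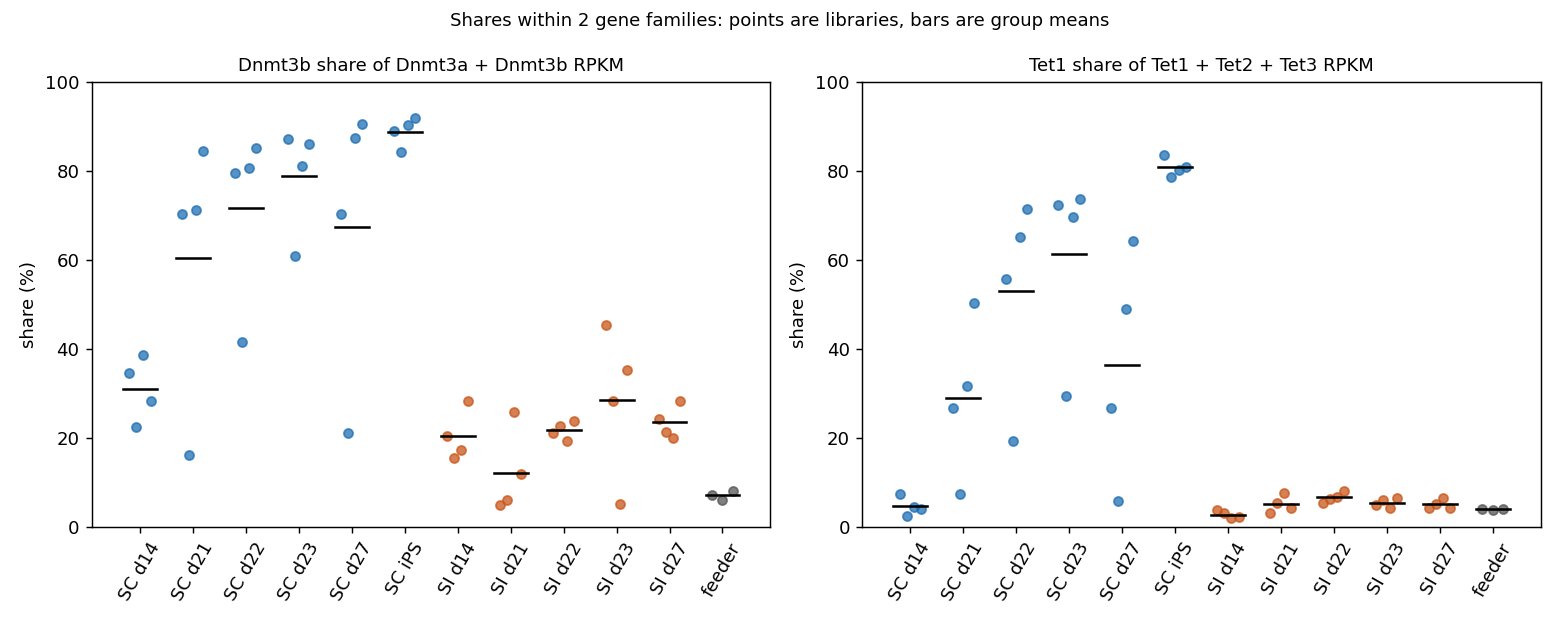
Left, Dnmt3b as a percentage of Dnmt3a plus Dnmt3b RPKM; right, Tet1 as a percentage of Tet1 plus Tet2 plus Tet3 RPKM, by group; points are libraries and bars are group means. iPS cells sit at 88.9% and 80.9% on average with little spread, and no SI library exceeds 45.4% and 8.16%.

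Tdg, the glycosylase of the last step, lay between 0.17 and 0.46 RPKM in all 47 libraries (median 0.32). Group means ran from 0.233 ± 0.0551 in feeders to 0.388 ± 0.0714 in iPS cells (SD), and every group overlapped its neighbours in the order of levels. The table lists a near-identical copy, Tdg-ps, at 0.0 to 0.09 RPKM, and how reads shared by the copies were counted is not given. Tdg also shares 367 of 5374 exon bases with Glt8d2 on the opposite strand. The value of Tdg is therefore uncertain, and no test was made on it.

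The difference at d23 brings the members together. In order of size on the log2(RPKM + 1) scale, SC exceeded SI in Dnmt3l, Dnmt3b, Tet1, Uhrf1, Dnmt1 and Tet2, and Dnmt3a (0.46 ± 0.23, limma adjusted p = 0.122) and Tet3 did not pass. Markers of cell identity moved with the same contrast. Pluripotency markers had means of 3.71 to 6.14 in SC and 0.157 to 1.63 in SI, with 11 of 11 tested higher in SC. None of the 11 reached 1 RPKM in all 4 SI libraries, so they entered through SC, where they were high, and the count is no support. Their summed RPKM was 181 to 1410.5 in SC and 1.32 to 31.8 in SI. Fibroblast markers had 5.31 to 7.71 in SC and 7.85 to 8.87 in SI, with 11 of 14 lower in SC and sums of 1016 to 5618 against 6552 to 11330.2 RPKM. SC2 had the lowest of these pluripotency values and the highest of the fibroblast values among SC clones. Macrophage markers had 2.01 to 2.49 in SC and 2.67 to 3.35 in SI, with 3 of 6 tested lower in SC and sums of 73.7 to 146.4 against 170.1 to 326.3 RPKM. Of all genes tested, 19.5% were lower in SC. None of the 7 macrophage markers found was at 0 in any of these libraries. Csf1r, not among the 3 called, stood at 1.87 to 4.32 RPKM in SC and 4.14 to 5.61 in SI (-0.51 ± 0.20, limma adjusted p = 0.0679). Of the 6 tested, Cd68 alone was on the side of SC, and it did not pass (0.92 ± 0.54, limma adjusted p = 0.177). The part of these in the differences was not tested.

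**Figure D4:**
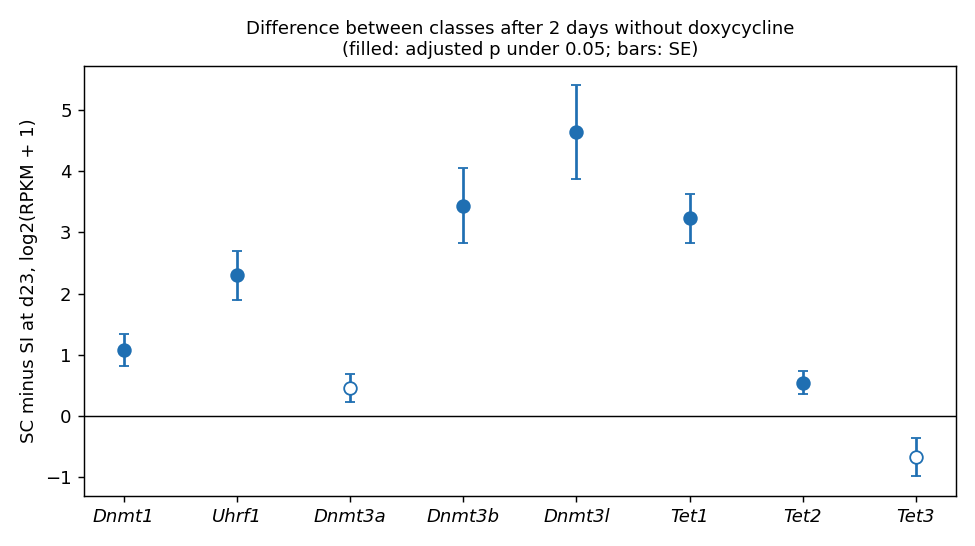
Difference of SC minus SI clones after 2 days without doxycycline on the log2(RPKM + 1) scale for the 8 members tested; bars are standard errors and filled points have an adjusted p under 0.05. Dnmt3l, Dnmt3b and Tet1 lie above 3, Uhrf1 at 2.30, and Tet3 alone lies below 0.

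Other genes that act on DNA methylation were counted in the same contrast. Of 11 cofactors of maintenance and de novo methylation, 10 were tested, 6 were higher in SC and 0 lower, with a median log2 difference of 0.82. They included Dppa3 (Stella), which keeps Uhrf1 from chromatin (3.08 ± 0.47, limma adjusted p = 0.0221), and Trim28, the corepressor of zinc finger proteins (1.43 ± 0.23, limma adjusted p = 0.0221). Dppa3 was below 1 RPKM in every SI library, so it entered through SC, where it was high, and is no support in this count. Mat2a, which makes the methyl donor, was at -0.01 ± 0.17 (limma adjusted p = 0.960). Of 7 genes put on a list of methylation readers, 0 were higher and 4 lower (median -0.68), among them Mbd2 (-0.95 ± 0.26, limma adjusted p = 0.0295) and Zbtb38 (-1.12 ± 0.31, limma adjusted p = 0.0297). Mbd3, listed with them without a check that it binds methylated DNA, was at 0.06 ± 0.13 (limma adjusted p = 0.727). The median over all genes tested was -0.01, and these counts stand beside the 23% higher and 19.5% lower.

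Of 18 genes of base excision and oxidised cytosine processing, 14 were tested, 7 higher and 1 lower in SC (median 0.37). Of those tested, 2 did not reach 1 RPKM in all SI libraries and needed SC libraries to enter. Ung, a uracil glycosylase, was higher by 2.62 ± 0.38 and Parp1, which senses strand breaks, by 2.56 ± 0.42 (limma adjusted p = 0.0221 for both). Gadd45b, a stress response gene, was at -0.65 ± 0.30 (limma adjusted p = 0.107). Of 6 TET partners and genes of cofactor supply, 5 were tested and 1 was higher, Idh2 (0.61 ± 0.21, limma adjusted p = 0.0473), with Ogt at 0.31 ± 0.17 (0.152) and Idh1 at -0.01 ± 0.13 (0.956). Of 10 germline genes known to be silenced by promoter methylation, 2 were tested and both were higher in SC: Tex19.1 (3.41 ± 0.73, limma adjusted p = 0.0227) and Sycp3 (2.90 ± 0.71, limma adjusted p = 0.0251). Both were above 2 RPKM in all SC libraries and at 0.04 to 1.56 RPKM in SI, so they had entered through SC.

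Between iPS cells and SC clones at d27 no gene of these 5 lists passed. The nearest were Hormad1, a meiotic chromosome axis gene (1.25 ± 0.25, limma adjusted p = 0.0513), Cxxc5, a CpG-binding protein (0.92 ± 0.20, limma adjusted p = 0.0579), and Dppa3 (2.29 ± 0.62, limma adjusted p = 0.0701). The other genes chosen there had adjusted p of 0.0719 (Mael, 1.83), 0.0851 (Trim28, 0.74), 0.0916 (Idh3a, -0.39), 0.0942 (Neil2, 0.82), 0.0997 (Idh1, -0.85) and 0.115 (Zbtb33, -0.54). Ung (0.67, 0.127), Mbd2 (-0.55, 0.141), Parp1 (0.36, 0.211), Tex19.1 (1.32, 0.403) and Mbd3 (-0.10, 0.501) lay farther from the threshold.

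Feeders gave a reference without reprogramming, not the start of the course. The groups held no library of the secondary fibroblasts before doxycycline, so a difference to feeders is not a change over time. At d14 6 of 6 members tested were higher in SC clones than in feeders, beside 40.8% of all genes (65.8% in either direction). Dnmt3b entered there only through SC clones, where it was higher. In SI clones 5 of 5 members were higher, beside 32.1% (44.1% in either direction). The SC differences ran from 0.71 ± 0.17 for Tet3 (limma adjusted p = 0.00713) and 0.75 ± 0.13 for Dnmt3a (limma adjusted p = 0.00137) to the 2.85 of Tet2. Dnmt3b was higher by 1.32 ± 0.16 (limma adjusted p = 0.000280), Dnmt1 by 1.26 ± 0.11 (limma adjusted p = 8.02e-05) and Uhrf1 by 1.76 ± 0.15 (limma adjusted p = 8.61e-05). In SI clones the sizes were alike, at 0.81 for Tet3, 0.98 for Dnmt3a, 1.34 for Dnmt1 and 1.93 for Uhrf1. Those SI calls were lost without 1 feeder library: 0 members passed without the first or the second, 1 without the third, and 3 without SI4. These fits called 1.21%, 0.964%, 1.17% and 16.6% of all genes.

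After 2 days without the drug 2 of 6 members were still higher in SI clones than in feeders, beside 21.2% of all genes (35.8% in either direction). These were Dnmt3a (1.35 ± 0.23, limma adjusted p = 0.00848) and Tet2 (0.78 ± 0.19, limma adjusted p = 0.0205). Dnmt3b, also tested, entered only through SI clones. Without SI3, the clone lowest in 7 of the 8 expressed members at d23, 6 were called, beside 65.2% of all genes. Without any other single library of the 7 only Dnmt3a was, beside 668 to 2265 genes called.

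The order of the 12 group means shows which groups are distinct. For Tet1 it ran from iPS cells through SC clones at d23, d22, d27 and d21 to SI clones and feeders, and 3 of 11 steps had no overlap: iPS to SC d23, SC d21 to SI d21, and SI d23 to feeders. Tet2 had 2 such steps, from SC d27 to SC d22 and from SI d23 to feeders. Uhrf1 had 1, SC d14 to SI d23, Dnmt3a 1, SC d14 to feeders, and Dnmt3b 1, SI d21 to feeders. For Dnmt1, Dnmt3l, Tet3 and Tdg each group overlapped the next, so their order over neighbouring groups is within the spread.

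Likeness over the 47 libraries set the members in different company. The genes most like Dnmt3b were Nodal, a ligand of the early epiblast (r = 0.974), Mycn (0.972) and Utf1 (0.971). Those most like Dnmt3l were Dppa4 (0.988), Trap1a (0.987) and Rbmxl2 (0.984), and those most like Tet1 were Zfp42 (Rex1, a marker of naive pluripotency, 0.979), Morc1 (0.974) and Dppa4 (0.974). Dnmt3a was nearest to Hunk (0.923), Rassf7 (0.907) and Gse1 (0.905). Tet2 was nearest to Adap1 (0.962), Zdhhc23 (0.955) and Mtr (0.955), and Tet3 to Rnpepl1 (0.967), Pik3c2a (0.959) and Ammecr1 (0.958). Among the members, Dnmt3l and Tet1 had r = 0.956, Dnmt3b and Tet1 0.947, and Dnmt3b and Dnmt3l 0.936. Tet2 and Tet3 had 0.631, Tet3 and Dnmt3l -0.713, and Tet1 and Tet2 -0.0026. These are descriptions over libraries that share clones.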

How the data were processed

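The 47 libraries were made by the authors from column-purified RNA treated with DNase, with Illumina TruSeq kits, per the labels' protocols. The deposited table holds 22632 genes with 1 column per library and 2 decimals, and every column was mapped by its title (0 left over). Its unit is not named. The deposited values were taken as RPKM because their smallest steps fall with gene length. CASAVA 1.8 and build mm9 are named without a role in the submitters' processing notes. For the aligner, annotation, filters and strand of counting the sources used here give nothing.

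Days with and without doxycycline came from each library's characteristics. The treatment text gives another schedule for d22 and d23.

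Members, lists and comparisons were chosen with earlier results of these data known. For 20 comparisons, linear models with moderated variances (limma 3.58.1 under R 4.3.3, eBayes with trend) were run on log2(RPKM + 1) of the groups compared, over genes with at least 1 RPKM in as many libraries as the smaller group holds. It was checked on simulated data. P-values were two-sided. Alternatives were a pseudocount of 0.1, no filter, median-ratio rescaling, 1 fit over all 12 groups, a replicate block and leaving out each library, and, added after the values were seen, leaving out SC2. All 9 members were named. So were, per member except Tdg, for which they are not reported here, the 3 genes with the highest r, and per list, at d23 and for iPS cells against d27, the 2 smallest adjusted p and the highest gene not past the threshold. Clone names pair the times within a class: same-clone deviations between d21 and d23 had r = 0.339 to 0.583. Of 22632 IDs 20750 were in GENCODE M21, used for overlaps. No 2 libraries were identical (0 pairs). Tables and figures used Python 3.11.15, pandas 2.3.3, numpy 2.4.6 and matplotlib 3.10.9.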

Additional observations from a re-analysis of the deposited data

Results flagged for a closer look

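In 6 of 99 sets of 4 libraries tested, 1 member in 1 group, the highest or lowest library stood far from the other 3. Chance alone marks about 1 set in 20. At d23, SC2 was such a library for 4 members: low in Dnmt1 (31.85 RPKM), Uhrf1 (12.94) and Tet1 (4.3), and high in Tet3 (5.6). The same library had the highest mean log2(RPKM + 1) of fibroblast markers among SC clones at d23 (7.71) and the lowest of proliferation genes (3.90). Their part in these values was not tested. The 2 others were in Tdg, with SI1 at d14 high at 0.44 RPKM and SI4 at d21 high at 0.38, both under the minimum of 1 RPKM for a test.

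Between d21 and d23 the Tet1 levels of the classes went in opposite directions. In all 4 SC clones it was higher at d23, with a mean ratio of 1.45, and in all 4 SI clones lower, with a mean ratio of 0.297. The difference of the log2 changes was 1.25 with a limma adjusted p of 0.2, and 0.0327 with the clone as a block.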

How the results depend on the processing

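Of the folds given for single members 1 reversed: Dnmt3l in SC at d22 against d21, to -0.24 without the d21 library of SC2, with a range of -0.24 to 1.79 over the libraries left out. Rescaling moved no call among 85, and the other pseudocount and the absence of a filter moved 1 each. In 1 fit over all 12 groups the members called numbered 3 (SC against SI at d21), 5 (d22), 3 (d27), 1 (SC d22 against d21), 2 (SC d23 against d21), 1 (SI d21 against d14), 2 (SI d22 against d21), 1 (difference of d23 changes), 3 (iPS against d27) and 1 (SI d23 against feeders). With the replicate block the counts were 6 (SC d22 against d21), 2 (SC d23), 1 (SC d27), 2 (difference of d23 changes), 1 (iPS against d27), 1 (SI d14 against feeders) and 1 (SI d23 against feeders). Between classes, and against feeders, samples share only a number: same-numbered SC and SI clones had r of -0.784 to 0.284, and that block took Tet2 from the d23 calls, leaving 5. Of the single folds refitted with the block, 69 kept their side of the threshold, 9 gained it and 6 lost it, and no other count moved by over 1.5 times. Without clone SC2 the counts were 0 (SC d22 against d21), 2 (SC d23), 3 (difference of d23 changes) and 1 (iPS against d27). The share of all genes called moved with the setting too, as given above where single counts are described. The counts listed here are therefore no result about the members.

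Leaving out 1 library at a time gave 0 to 3 members between classes at d21, 0 to 5 at d22, 0 to 7 at d23 and 0 to 6 at d27. Over all genes the same fits called 0 to 222 at d21, 0 to 4147 at d22 and 0 to 2796 at d27. Members called within a class numbered 0 to 2 (SC d22 against d21), 1 to 2 (SC d23) and 0 to 1 (SI d21 against d14). They were 2 to 4 (SI d22), 5 to 6 (SI d23) and 0 to 4 (SI d27). All genes called there numbered 30 to 1205, 104 to 823, 0 to 1664, 2908 to 6098, 5360 to 7563 and 0 to 5735. The difference of d23 changes gave 0 to 3 members, beside 0 to 4156 genes, and iPS against d27 0 to 3, beside 9 to 2766. Against feeders, SI d14 gave 0 to 6, beside 117 to 7296 genes, and SI d23 1 to 6, beside 668 to 7811. The member ranges are therefore no result about the members alone. Over all genes the d23 class calls ran from 2 to 7978 (5021 with all libraries), with 4297 without a filter, 7990 in 1 fit and 2373 with the block. The cause was not tested. Depth was known only from the steps between values, so the reads behind low values were not counted.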
